A study of Mus musculus with 9 samples.

Results

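Erythroblasts of mice kept for 7 weeks on a low iron diet were compared with erythroblasts of mice kept for 3 weeks on the same diet, with 3 arrays in each group and no normal diet array in the comparison. The cells were those the labels call subset II, sorted from bone marrow, the mice being C57BL/6J wild types that the labels give as female, and the labels do not define the gate of that subset. Both groups received the low iron diet, started after weaning, so what separates them is its length, and age at collection cannot be told apart from that length. The design text speaks of biological replicates, and whether an array holds 1 animal or a pool is not stated. A gene was a member of the comparison when 1 or both groups had a probe for it well above background on each of the 3 arrays, which held for 13406 of the 20018 genes that the 55681 probes name.

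Erythroblasts are the nucleated precursors of red cells. They take up iron through the transferrin receptor, build heme in mitochondria and fill with hemoglobin, and under iron deficiency heme-regulated kinases and iron regulatory proteins slow translation and adjust iron uptake. As they mature they leave the cell cycle, condense their chromatin, lose mitochondria by mitophagy and finally expel the nucleus, while erythropoietin signals through Jak2 and Stat5 to keep them alive. The study deals with anemia of iron deficiency and with mitophagy in erythroblasts, and the comparison of its later with its earlier time asks which transcripts differ after the longer exposure.

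In the text a level is the log2 processed signal of a probe minus the 75th percentile of its array, and a change is the level at 7 weeks minus that at 3 weeks, given with its standard error. Each adjusted p is from limma over all 13406 genes. All 10 measured genes of the erythroblast list, among them Gata1, Klf1, Epor, Tfrc and Alas2, were well above background on all 6 arrays. The arrays of the groups differed as a whole. The share of spots well above background was 56.8% to 70.8% at 3 weeks and 45.2% to 53.6% at 7 weeks, and the 75th percentile of signal was 1677 to 1837 and 791.7 to 1087. The 10 spike-in control probes lay at a mean level of 1.29 ± 0.234 (SD, n = 3) at 3 weeks and 4.96 ± 0.469 at 7 weeks. The 3 week arrays shared 1 slide and 1 scan and the 7 week arrays another, so neither can be told apart from the diet's length. The mean correlation of an array with the others of its group, across genes, was 0.976 to 0.978 at 3 weeks and 0.905 to 0.934 at 7 weeks, lowest in 7 week replicate 1.

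A large share of the transcripts measured differed. Of 13406 genes, 4000 passed an adjusted p of 0.05, which is 29.8%, with 1885 higher at 7 weeks (14.1%) and 2115 lower (15.8%). The levels of the groups did not overlap for 6690 genes, or 49.9%. The median change over all genes was -0.16, and each list below is read against that value and those shares. Another scaling moved this median, to -0.27 with quantile normalization and to -0.01 with normexp background correction. Without 3 week replicates 1, 2 and 3 in turn 1808, 2107 and 1571 genes passed, and 1441 genes passed in every fit that left out 1 array. Without 7 week replicate 1 more genes passed, 2370 higher and 2992 lower of 13406. List counts given below without that array are read against these. A gene kept through 1 group alone missed that mark on 1 or more arrays of the other group, which can favour a difference. Over probes well above background on all 6 arrays 3422 of 10496 genes passed, 1911 higher and 1511 lower. Direction also went with brightness. Of the 327 genes at 20% or more of the saturation value, 174 were higher and 1, the iron-sulfur assembly gene Isca1, was lower, with a median change of 1.06, whereas their signal before scaling differed by a median of 0.10. Of the 13079 dimmer genes 1711 were higher and 2114 lower, with a median change of -0.19 and a median difference of -1.16 before scaling. The part that a signal ceiling, array-wide brightness or slide played in the changes was not tested.

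**Figure D1:**
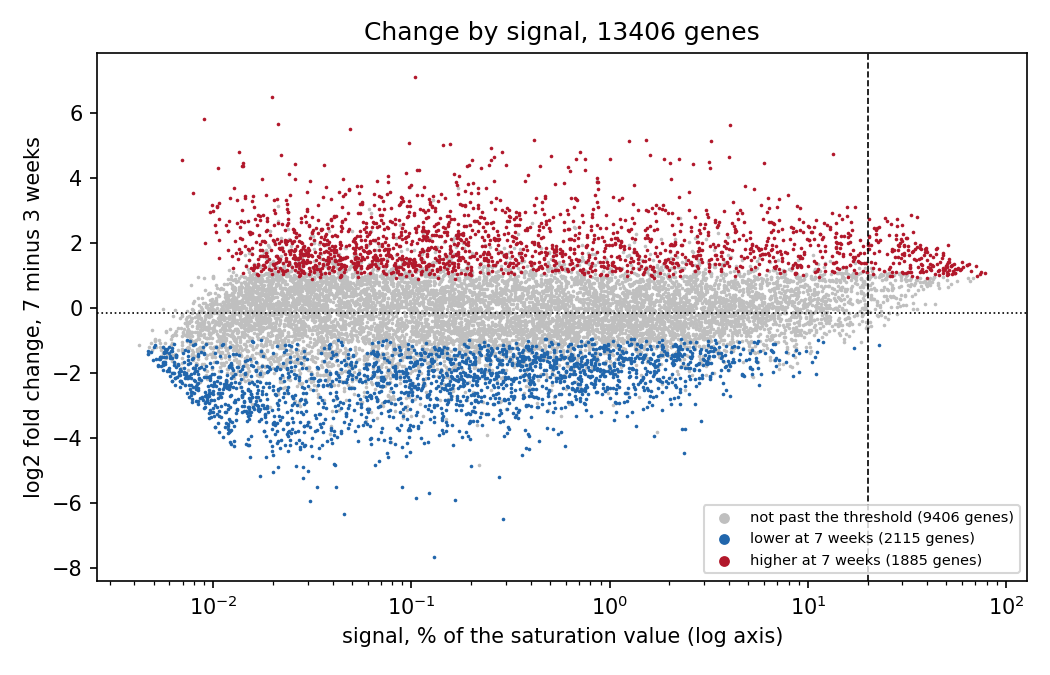
Change at 7 against 3 weeks (vertical axis, log2) for each of the 13406 genes by its mean signal in percent of the saturation value (horizontal log axis), with genes past the threshold in red (higher) and blue (lower). The dashed line marks 20% of saturation, to the right of which 174 genes were higher and 1 lower, and the dotted line is the median change of -0.16.

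Transcripts of the cytosolic ribosome rose almost as a whole. Of 81 ribosomal protein genes 74 were higher and 0 lower, 80 lay apart with no overlap of the groups, and the median change was 1.78. Rpl38, a protein of the large subunit, measured 5.03, 4.89 and 5.31 on the 3 week arrays and 7.80, 8.51 and 8.23 on the 7 week arrays. Every 7 week array was above every 3 week array, and the change was 3.11 ± 0.33 (adjusted p = 0.00246). Rps15a, of the small subunit, measured 5.20, 4.86 and 5.14 and then 7.87, 7.99 and 7.89, a change of 2.85 ± 0.28 (adjusted p = 0.00237), again with no overlap. Further probes of Rps15a gave -0.61 and 2.92. Rpl36, Rps25, Rpl27a and Rpl37a rose by 2.59 to 3.09. Further probes gave 3.32 and 4.36 for Rpl36, 1.45 for Rps25 and 0.34 and 2.23 for Rpl27a. These are among the brightest genes of the arrays, and only 11 of the 81 lay under 20% of saturation. Of those 11, 9 were higher with a median change of 2.26. Quantile normalization left 22 of the 81 higher and 0 lower, with a median of 0.54. The rise was in each 7 week array, with list medians of 1.67, 1.96 and 1.72 relative to the 3 week means. Without 3 week replicates 1, 2 and 3 in turn 48, 56 and 54 genes were higher.

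Many subunits of the respiratory chain were also higher. This chain passes electrons to oxygen in the inner mitochondrial membrane and drives ATP synthase. Of 37 complex I genes 28 were higher and 1 lower (median change 2.08), and of 43 genes of complexes II to V 29 were higher and 0 lower (median 1.64). Ndufa3, an accessory subunit of complex I, measured 4.03, 4.07 and 4.54 at 3 weeks and 6.98, 7.58 and 7.46 at 7 weeks. The groups were far apart, and the change was 3.13 ± 0.33 (adjusted p = 0.00246). Ndufa7, Ndufa5 and Ndufs5, also accessory subunits, rose by 3.17, 2.75 and 2.72.

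The examples from complexes III, IV and V are genes with large changes that passed in every fit without 1 array. Uqcr10, of complex III, measured 3.82, 3.37 and 4.26 at 3 weeks and 6.88, 7.23 and 7.35 at 7 weeks, a change of 3.34 ± 0.35 (adjusted p = 0.00246). Cox7b of cytochrome c oxidase rose by 2.64 ± 0.32 (adjusted p = 0.003), and the ATP synthase subunits Atp5k, Atp5j2 and Atp5l rose by 3.48, 2.74 and 2.64. None of these overlapped between groups. Complex I kept 20 higher genes and a median of 1.33 with quantile normalization, and complexes II to V kept 19 higher, had 1 lower and a median of 0.68. Leaving out 3 week replicates 1, 2 and 3 in turn, 18, 21 and 23 complex I genes and 18, 20 and 21 genes of the other complexes were higher.

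**Figure D2:**
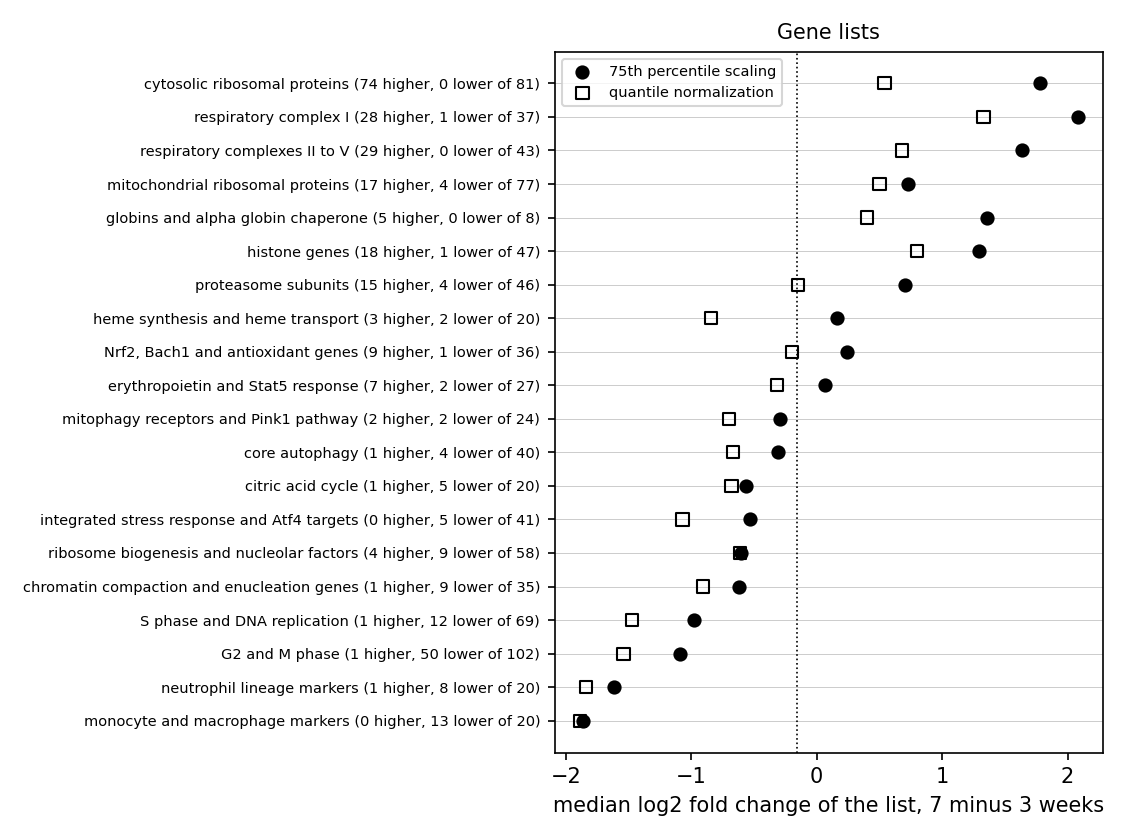
Median log2 change of 20 gene lists at 7 against 3 weeks, with 75th percentile scaling (filled circles) and with quantile normalization (open squares), and the numbers of genes past the threshold beside each name. The dotted line is the median of all genes, -0.16. Of these lists, complex I, cytosolic ribosomal proteins and complexes II to V stood highest with the first scaling, and complex I and histone genes with the second. Macrophage and neutrophil markers stood lowest with both. The medians of the proteasome, heme synthesis, antioxidant and erythropoietin lists were above 0 with the first scaling and below 0 with the second.

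Other mitochondrial and translation genes were mixed. Of 77 mitochondrial ribosomal proteins 17 were higher and 4 lower (median 0.73), led by Mrpl54 at 2.93 ± 0.40 (adjusted p = 0.00402) and Mrps21 at 2.70 ± 0.33 (adjusted p = 0.003). Mrps5, Mrpl37, Mrps9 and Mrps27 were the 4 that fell. This list depended on the arrays, with a median of -0.30 in 7 week replicate 1 against 0.97 and 1.23 in the others, with 40 higher genes without that replicate and with 8, 11 and 10 higher genes without 3 week replicates 1, 2 and 3. Of 20 enzymes of the citric acid cycle 5 were lower and 1 higher (median -0.56). The list median was -1.28 in 7 week replicate 1 against -0.12 and 0.23 in the others, without that replicate it was 0.05 with 3 higher and 6 lower, and without 3 week replicate 3 there were 2 lower. Idh3b, a subunit of isocitrate dehydrogenase, went from 4.69, 4.77 and 4.79 to 0.66, 1.91 and 2.35 with no overlap, a change of -3.11 ± 0.47 (adjusted p = 0.00513). Dlat, of the pyruvate dehydrogenase complex, changed by -3.39 ± 0.54 (adjusted p = 0.0059), with 1 of the 7 week arrays well above background.

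Factors that build ribosomes did not rise as the ribosomal proteins did. Of 58 biogenesis and nucleolar genes 4 were higher and 9 lower (median -0.60). Nop14, of the small subunit processome, measured 2.15, 1.78 and 1.83 at 3 weeks and -2.09, -0.70 and -0.96 at 7 weeks, a change of -3.17 ± 0.43 (adjusted p = 0.00387). The helicase Ddx47 and the endonuclease Nob1 fell by 3.04 and 2.80. Without 7 week replicate 1 the list held 12 higher and 10 lower genes with a median of -0.01, and without 3 week replicate 1, 2 or 3 it held 4 lower genes. Of 48 translation factors 8 were higher and 6 lower. Within the initiation factor eIF3, Eif3k rose by 2.13 ± 0.34 (adjusted p = 0.00608) and Eif3a, its large scaffold, fell by 2.11 ± 0.38 (adjusted p = 0.00866). Further probes of Eif3k gave 0.87 and 2.35. Of 22 aminoacyl tRNA synthetase genes 1 was higher and 3 lower, and of 54 splicing genes 4 were higher and 10 lower, among them Hnrnpk at -2.53 ± 0.37 (adjusted p = 0.00476) and Tra2b at -2.12 ± 0.30 (adjusted p = 0.00415). The splicing list held 2, 4 and 3 lower genes without 3 week replicates 1, 2 and 3, and 14 higher and 13 lower without 7 week replicate 1.

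Mitophagy and autophagy genes had few calls. Of 24 mitophagy genes 2 were higher and 2 lower (median -0.29), which is below the shares over all genes. Bnip3l, the receptor that red cell precursors use to clear mitochondria, measured 7.88, 8.0 and 7.71 at 3 weeks and 8.31, 7.65 and 8.03 at 7 weeks. The groups overlapped, and the difference of 0.13 ± 0.31 did not pass (adjusted p = 0.778), whereas with quantile normalization it was -1.09 and passed (adjusted p = 0.0304). Pink1, the kinase that marks damaged mitochondria, differed by 0.81 ± 0.69 and did not pass (adjusted p = 0.406), with 7.61 in 7 week replicate 1 against 4.75 and 5.83. Tomm7, a small subunit of the outer membrane translocase that stabilises Pink1, rose from 4.42, 4.35 and 4.91 to 6.82, 7.37 and 7.42, a change of 2.64 ± 0.33 (adjusted p = 0.00331) without overlap. A further probe of Tomm7 gave -0.55. The other call upward was Fkbp8, and Optn and Fundc1 were the calls downward, and each of these 3 was lost in at least 3 of the 6 fits without 1 array. Of 40 autophagy genes 1 was higher and 4 lower, the 4 being Pik3c3, Atg4b, Atg7 and Becn1. Atg7 had a further probe at 1.24 and did not pass with the mean over its probes (-0.28, adjusted p = 0.684). Pik3c3, the lipid kinase that starts autophagosomes, changed by -2.82 ± 0.61 (adjusted p = 0.0156), with an adjusted p of 0.0531 to 0.064 without 3 week replicates 1, 2 and 3. Without 7 week replicate 1 there were 6 lower mitophagy genes and 11 lower autophagy genes, in a fit where 2992 of all 13406 genes were lower. Of 23 genes of mitochondrial fusion, fission and DNA upkeep 3 were higher and 5 lower. Fis1, an outer membrane fission protein, rose by 1.58 ± 0.29 (adjusted p = 0.00952), a call that quantile normalization ended with a change of 0.29 (adjusted p = 0.449).

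Part of the globin and heme genes were near the top of the signal range, and the direction of several turned with the scaling. Of 8 measured globin and chaperone genes 5 were higher and 0 lower (median 1.36). With quantile normalization 1 was higher and 0 lower, with a median of 0.40. Of the 8 genes 4 lay under 20% of saturation, with a median change of 1.83. Hbb-bt, an adult beta globin, measured 8.39, 8.41 and 8.40 at 3 weeks and 9.76, 9.53 and 9.13 at 7 weeks, without overlap. Its change was 1.08 ± 0.30 (adjusted p = 0.0369) at 78.4% of saturation, against a difference of 0.11 before scaling and a change of -0.03 (adjusted p = 0.926) with quantile normalization. Hba-a1, an alpha globin, changed by 1.10 ± 0.31 (adjusted p = 0.0362) and by -0.02 with quantile normalization. No globin gene passed without any 1 of the 3 week arrays. Signal of near-identical globin copies may not be separable on such probes.

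Of 20 genes of heme synthesis and heme transport 3 were higher and 2 lower (median 0.16, but -0.84 with quantile normalization, where 0 were higher and 4 lower). Alas2, the first and rate-limiting enzyme in erythroid cells, measured 8.18, 8.27 and 8.10 at 3 weeks and 9.42, 9.13 and 8.78 at 7 weeks. It did not pass, at 0.93 ± 0.31 (adjusted p = 0.0593), passed as higher with all 9 arrays, normexp correction or a trended robust spread (adjusted p 0.0149 to 0.0345), and turned to -0.25 with quantile normalization. Slc25a39, a carrier for mitochondrial glutathione import, changed by -2.29 ± 0.51 (adjusted p = 0.0166), with an adjusted p of 0.0627 to 0.0666 without 3 week replicate 1 or 2. The 3 higher genes, Cpox, Urod and Slc25a37, lost their calls with quantile normalization and without each 3 week array, and Urod and Slc25a37 then turned below 0 with that normalization.

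Of 24 iron handling genes 2 were higher and 4 lower. Tfrc, the transferrin receptor, measured 7.41, 7.16 and 6.99 at 3 weeks and 8.30, 6.92 and 7.34 at 7 weeks, so the groups overlapped, and the difference of 0.33 ± 0.42 did not pass (adjusted p = 0.578) and was -0.85 with quantile normalization. These are values of its brightest probe, and 2 further probes gave -1.98 and -1.99, 1 of them past the threshold as lower. Erfe, the erythroblast hormone that lowers hepcidin, measured 3.91, 4.71 and 2.93 and then 4.03, 3.53 and 4.21, with overlap and a difference of 0.07 ± 0.50 (adjusted p = 0.924) whose sign turned in 4 alternative fits. Exoc6, the exocyst subunit that transferrin recycling needs and that is mutated in the hemoglobin-deficit mouse, fell most in the list. It went from 2.50, 2.21 and 2.49 to -1.35, -1.13 and -0.60, a change of -3.43 ± 0.33 (adjusted p = 0.00237), with every 7 week array below every 3 week array. Slc40a1, the iron exporter ferroportin, was lower at -1.22 ± 0.33 (adjusted p = 0.0321), with an adjusted p of 0.0628 to 0.126 in the 5 fits without 1 array in which it did not pass. Snx3 and Fbxl5 were the other 2 that fell, and 1 gene of the list was lower without any 1 of the 3 week arrays. The ferritin genes Fth1 and Ftl1 were the 2 that were higher, at 1.31 ± 0.29 (adjusted p = 0.0166) and 1.29 ± 0.30 (adjusted p = 0.0206). Both differed by little before scaling (0.34 and 0.33), did not pass with quantile normalization (0.14 and 0.06) and did not pass without any 1 of the 3 week arrays.

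Among 31 genes of iron-sulfur cluster assembly 6 were higher and 3 lower. The counts were 3 and 5 with quantile normalization, 2 and 0 without any 1 of the 3 week arrays and 9 and 4 without 7 week replicate 1. Bola2, a cytosolic cluster carrier that works with glutaredoxin, measured 3.23, 3.18 and 3.58 at 3 weeks and 5.51, 6.88 and 6.60 at 7 weeks, with a change of 3.00 ± 0.43 (adjusted p = 0.00431). Bola3, its mitochondrial relative, went from 5.35, 5.49 and 5.79 to 7.29, 8.08 and 7.80, a change of 2.18 ± 0.34 (adjusted p = 0.00556). Neither overlapped between groups, and both passed in every fit without 1 array. Nfs1, the cysteine desulfurase that supplies the sulfur, changed by -1.21 ± 0.34 (adjusted p = 0.0347) but did not pass without 3 week replicates 1, 2 and 3 or 7 week replicate 2, where the adjusted p was 0.0804 to 0.132.

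Several feedback inhibitors of cytokine signalling were among the genes that rose. The Socs proteins and Cish are induced by Stat factors and bind to receptors or Jak kinases to end the signal. Of 27 genes of the erythropoietin and Stat5 response 7 were higher and 2 lower, and 4 of the 7, picked out after their values were seen, were Socs genes and Cish. With quantile normalization the list had 5 higher and 5 lower (median -0.32), and without 3 week replicate 1 or 3 it had 2 higher and 0 lower. Socs3 had the largest change among them, and the 250 bases before its start hold the sequence TTCNNNGAA, the core of a Stat site, which is shown in capitals because the gene is a known Stat target. The bases are from RefSeq on GRCm38.p6, chr11:117969367-117969616, minus strand, written 5′ to 3′ on the strand of the gene, with the match at 154 to 146 bases before the start.
Socs3: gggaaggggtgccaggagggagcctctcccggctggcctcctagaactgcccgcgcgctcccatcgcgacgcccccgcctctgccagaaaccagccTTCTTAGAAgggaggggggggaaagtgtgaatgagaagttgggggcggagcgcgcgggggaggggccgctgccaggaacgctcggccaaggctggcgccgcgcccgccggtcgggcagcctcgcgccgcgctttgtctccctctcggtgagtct
The same letters stood, on either strand, in 6.35% of the promoters of the 10759 tested genes that the RefSeq table holds and in 1 of 22 of this list, so the match is a description only.

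Socs3 measured 1.05, 0.98 and -0.94 at 3 weeks and 5.11, 4.90 and 4.79 at 7 weeks. All 7 week arrays were close together and above the 3 week arrays, and the change was 4.57 ± 0.56 (adjusted p = 0.00316). Spry1, an inhibitor of Ras and MAP kinase signalling, measured -5.29, -5.18 and -4.07 and then -0.43, -0.84 and 0.02, with 1 of the 3 week arrays well above background and a change of 4.43 ± 0.44 (adjusted p = 0.00237). Both calls held in every fit without 1 array. Socs2 rose by 2.93 ± 0.65 (adjusted p = 0.0167), Socs1 by 2.34 ± 0.48 (adjusted p = 0.0133) and Cish by 2.26 ± 0.52 (adjusted p = 0.019). Without 3 week replicate 1 or 3 the adjusted p of these 3 genes was 0.0558 to 0.0737, and Cish had 0.0778 with quantile normalization. Epor, the erythropoietin receptor, measured 6.67, 6.62 and 6.71 and then 6.34, 5.37 and 6.18, a difference of -0.70 ± 0.35 that did not pass (adjusted p = 0.172), though with quantile normalization it was -1.60 and passed (adjusted p = 0.0101). The kinase gene Pim2 was lower at -3.69 ± 0.88 (adjusted p = 0.0212), with an adjusted p of 0.0522 to 0.0776 in the 4 fits without 1 array that lost it, and Dusp6, a phosphatase that also acts as a feedback inhibitor, was the other gene that fell. Of 17 genes of BMP and Smad signalling 0 were higher and 4 lower, namely Smad5, Id2, Twsg1 and Smurf2, with 1 lower gene without 3 week replicate 1 and 0 without 3 week replicate 2 or 3.

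**Figure D3:**
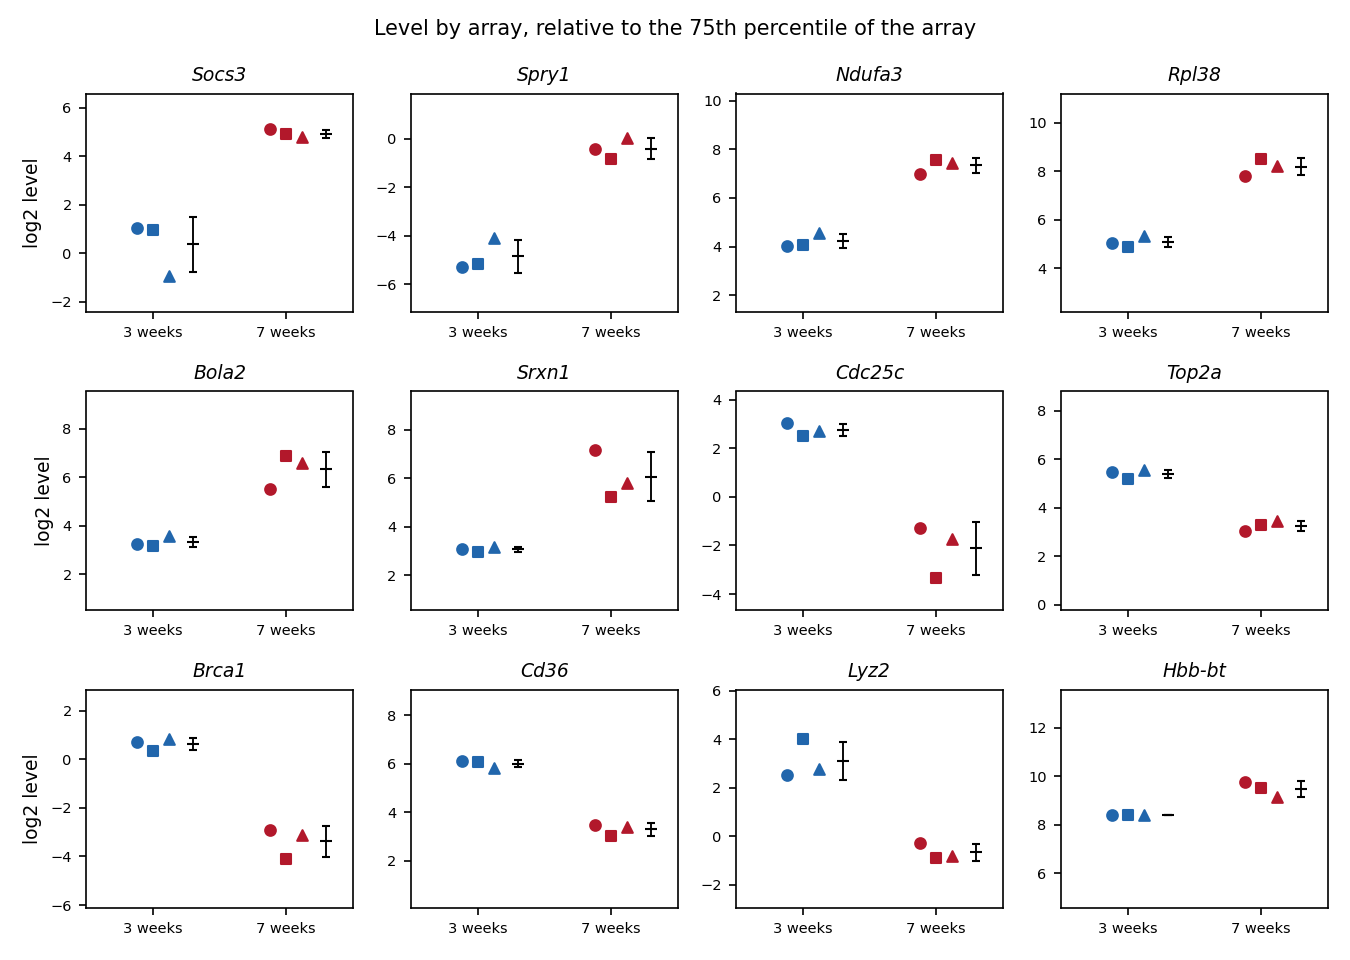
Level of 12 genes on each array (log2, relative to the 75th percentile of the array), with 3 week arrays in blue and 7 week arrays in red, replicates 1 to 3 as circle, square and triangle, and the group mean ± SD in black. Each panel spans the same range. No gene shown overlaps between groups, and the change of Hbb-bt is the smallest, at 1.08.

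Genes of mitosis were often lower. Of 102 genes of G2 and M phase 50 were lower (median -1.09) and 1, Birc5 of the chromosomal passenger complex, was higher (1.08 ± 0.28, adjusted p = 0.0289), a direction that turned to -0.23 with quantile normalization and to -0.02 with the mean over its probes. That is 49.0% lower, against 15.8% of all genes. Cdc25c, the phosphatase that starts mitosis, measured 3.04, 2.51 and 2.73 at 3 weeks and -1.28, -3.35 and -1.73 at 7 weeks. Every 7 week array was below every 3 week array, and the change was -4.88 ± 0.55 (adjusted p = 0.00273). Top2a, the topoisomerase that untangles chromosomes, went from 5.46, 5.19 and 5.54 to 3.05, 3.28 and 3.44, a change of -2.14 ± 0.30 (adjusted p = 0.00403). Dlgap5, a spindle protein, fell by 3.74 ± 0.34 (adjusted p = 0.00237), and Troap and Ska3, which act at spindles and kinetochores, fell by 3.94 and 3.87. For some regulators the call depended on the setting. Ccnb1, cyclin B1, differed by -0.21 ± 0.30 (adjusted p = 0.621), but passed as lower with quantile normalization (-0.97, adjusted p = 0.0377) and with the mean over its probes (-1.17, adjusted p = 0.0228). Cdc20, an activator of the anaphase complex, differed by -0.23 ± 0.28 (adjusted p = 0.563) and passed as lower with quantile normalization (-1.31, adjusted p = 0.012). Mki67, the Ki-67 antigen, differed by 0.87 ± 0.28 (adjusted p = 0.0577), turned to -0.43 with quantile normalization, and passed as higher with all 9 arrays, normexp correction or a trended robust spread (adjusted p 0.0138 to 0.0446). The count of lower genes was 70 with quantile normalization and 29, 42 and 28 without 3 week replicates 1, 2 and 3. The list medians of the 7 week arrays were -1.17, -1.21 and -0.94.

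Promoters of many G2 and M phase genes carry a CCAAT box, which binds the activator NF-Y, and, near the start, the cell cycle element with the core TTTGAA, which mediates repression early in the cycle. Shown are the 250 bases before the start of 4 lower genes of the list that hold both, chosen after their values were seen. Genes on a chromosome that was left out were not considered, and the 4 had the largest falls among the rest. Larger falls among genes with both motifs may therefore exist. Matches on either strand are in capitals (TTCAAA and ATTGG are the reverse strand forms), the bases are from RefSeq on GRCm38.p6 and run 5′ to 3′ on the gene's strand. The regions are chr3:159495183-159495432 for Depdc1a, chr15:102296043-102296292 for Espl1, chr19:37376132-37376381 for Kif11 and chr8:116921490-116921739 for Cenpn, all on the plus strand.
Depdc1a: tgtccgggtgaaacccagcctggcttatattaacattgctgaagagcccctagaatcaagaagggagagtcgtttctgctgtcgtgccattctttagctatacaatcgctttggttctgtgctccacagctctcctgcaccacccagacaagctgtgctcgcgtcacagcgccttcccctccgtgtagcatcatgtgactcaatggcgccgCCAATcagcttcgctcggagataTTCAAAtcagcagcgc
Espl1: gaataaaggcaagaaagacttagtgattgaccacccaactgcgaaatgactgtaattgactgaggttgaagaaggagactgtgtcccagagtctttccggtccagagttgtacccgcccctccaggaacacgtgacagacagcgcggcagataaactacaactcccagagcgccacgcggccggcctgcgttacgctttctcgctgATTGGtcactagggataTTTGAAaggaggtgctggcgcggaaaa
Kif11: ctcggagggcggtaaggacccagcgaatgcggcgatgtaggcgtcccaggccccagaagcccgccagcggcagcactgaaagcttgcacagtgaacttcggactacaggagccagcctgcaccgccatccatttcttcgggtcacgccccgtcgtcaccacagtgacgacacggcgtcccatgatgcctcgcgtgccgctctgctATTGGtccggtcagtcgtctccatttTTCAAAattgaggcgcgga
Cenpn: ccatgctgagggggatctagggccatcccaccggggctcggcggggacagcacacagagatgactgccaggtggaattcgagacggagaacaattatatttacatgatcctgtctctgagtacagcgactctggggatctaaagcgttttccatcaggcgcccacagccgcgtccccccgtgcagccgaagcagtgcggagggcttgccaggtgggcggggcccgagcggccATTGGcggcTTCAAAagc
Depdc1a went from 3.91, 3.25 and 3.95 to 1.17, 1.19 and 0.98, a change of -2.59 ± 0.32 (adjusted p = 0.00326). Espl1, the separase that cuts cohesin, fell by 2.35, Kif11, the motor that separates spindle poles, by 2.29, and Cenpn, which reads centromeric nucleosomes, by 2.21, none with overlap between groups. Both motifs stood in 28.4% of the 81 promoters of the list that the table holds, against 4.62% of all 10759. Among the lower genes of the list they stood in 11 of 39 promoters and among those that did not pass in 12 of 41. Of all 1668 lower genes with a promoter 5.16% held both.

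S phase genes were lower chiefly on 1 array. Of 69 genes of DNA replication 12 were lower and 1, Gins3, was higher (median -0.98). The lower share was 17.4%, near the 15.8% of all genes. The list median of 7 week replicate 1 was -2.58, against -0.27 and 0.02 in replicates 2 and 3, and without it the median change was -0.09, with 17 lower and 3 higher. There were 9, 9 and 7 lower genes without 3 week replicates 1, 2 and 3. Pcna, the sliding clamp of DNA polymerase, shows the split, with 7.32, 7.30 and 7.29 at 3 weeks and 4.95, 7.58 and 7.68 at 7 weeks. The difference was -0.57 ± 0.72 (adjusted p = 0.584) and 0.33 without 7 week replicate 1. Some genes were low on all 7 week arrays. Cdc45, of the replicative helicase, measured 3.06, 3.22 and 3.91 and then -2.73, -2.14 and -0.55, with a change of -5.20 ± 0.59 (adjusted p = 0.00273). Brca1, of homologous repair, went from 0.70, 0.35 and 0.85 to -2.89, -4.09 and -3.12, with 1 of the 7 week arrays well above background and a change of -4.00 ± 0.40 (adjusted p = 0.00237). Orc5, of the origin complex, changed by -3.74 ± 0.62 (adjusted p = 0.00663). Among 26 genes of cell cycle inhibitors, G1 cyclins and Rb partners 3 were higher and 6 lower. Ccnd1, cyclin D1, was at least 2.81-fold lower, with no 7 week array well above background (fitted change -3.81, adjusted p = 0.00248). Cdkn1a, the p53-induced inhibitor p21, measured 1.30, 2.50 and -1.95 at 3 weeks and 5.10, 3.14 and 4.62 at 7 weeks. The groups did not overlap, and its change of 3.67 ± 1.13 passed (adjusted p = 0.0468) but held in 1 of the 6 fits without 1 array, with 0.057 to 0.103 in the others, and it had 0.0508 with quantile normalization and 0.0554 with the mean over its probes.

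**Figure D4:**
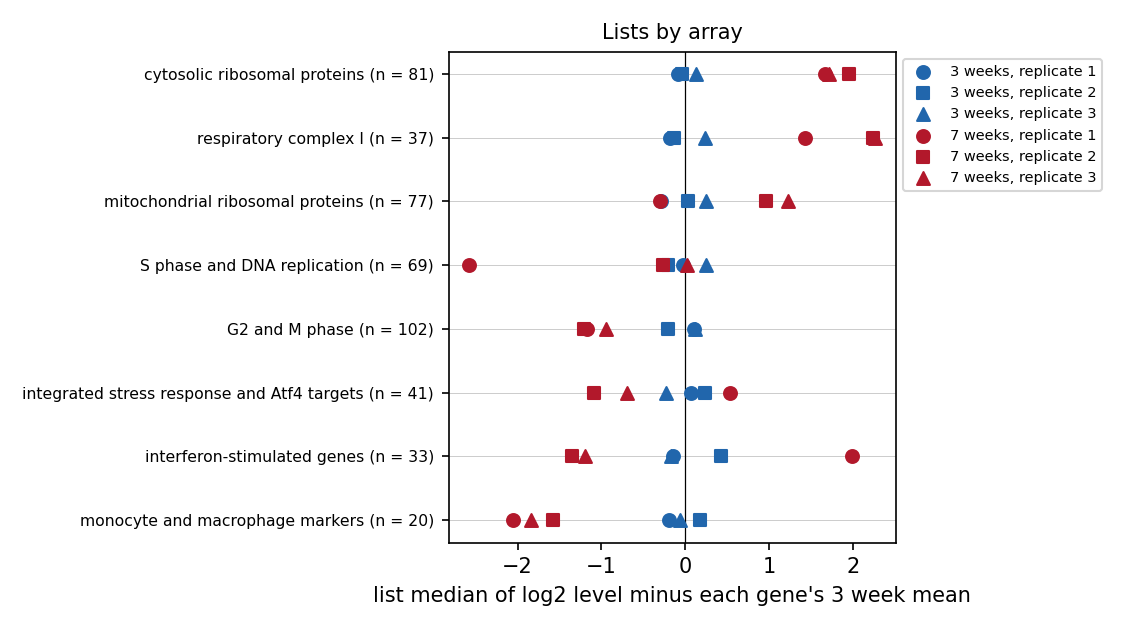
Median over the genes of 8 lists of the level on each array minus each gene's 3 week mean (log2), with 3 week arrays in blue, 7 week arrays in red and replicates 1 to 3 as circle, square and triangle. For ribosomal proteins, complex I, G2 and M phase and macrophage markers the 7 week arrays lie on 1 side of the 3 week arrays, whereas 7 week replicate 1 stands apart for S phase (-2.58) and for interferon-stimulated genes (1.99, against -1.35 and -1.19).

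Death and survival genes went both ways. Of 41 p53 targets and Bcl2 family genes 7 were higher and 8 lower (median -0.07), with 4 higher and 13 lower without 7 week replicate 1. Bax, a pore-forming activator of apoptosis, rose from 2.83, 3.33 and 3.41 to 5.43, 4.67 and 5.47, a change of 2.00 ± 0.36 (adjusted p = 0.00883). Bid, which links death receptors to mitochondria, went from 0.70, 1.13 and 1.60 to -3.83, -2.57 and -2.73, a change of -4.19 ± 0.45 (adjusted p = 0.00248). With 2 of the 7 week arrays well above background, Bid entered the comparison through the 3 week group alone. Neither gene overlapped between groups, and both passed in every fit without 1 array. Over probes well above background on all 6 arrays 8 of 32 genes of the list were higher and 6 lower (median 0.35).

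Among histone genes and genes of chromatin compaction the calls pointed to opposite sides. Of 47 histone genes 18 were higher and 1, H2bc21, was lower (median 1.29). H2ac1 measured -0.92, -0.15 and -0.80 at 3 weeks and 1.93, 1.52 and 1.75 at 7 weeks, a change of 2.36 ± 0.34 (adjusted p = 0.00445), and H3c11 rose by 2.18 ± 0.40 (adjusted p = 0.00952). Near-identical histone copies may share signal on these probes. The count of higher histone genes was 2, 2 and 4 without 3 week replicates 1, 2 and 3, 29 without 7 week replicate 1, 10 without 7 week replicate 2 and 11 with quantile normalization. Of 35 genes of chromatin compaction and enucleation 1 was higher and 9 lower (median -0.62). Some entered through the 3 week group alone, and of the 28 with a probe well above background on all 6 arrays 2 were higher and 4 lower (median -0.19). Suv39h1, a histone H3 methyltransferase of heterochromatin, went from 0.20, 0.26 and 0.65 to -3.48, -4.30 and -1.86, a change of -3.59 ± 0.61 (adjusted p = 0.00732), with 1 of the 7 week arrays well above background. Nap1l4, a histone chaperone, fell by 3.45 ± 0.42 (adjusted p = 0.00303). The list held 5, 4 and 4 lower genes without 3 week replicates 1, 2 and 3.

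The central erythroid transcription factors did not pass the threshold. Gata1 measured 6.71, 6.72 and 6.59 at 3 weeks and 7.68, 6.58 and 7.10 at 7 weeks, with overlap and a difference of 0.45 ± 0.36 (adjusted p = 0.38), which turned to -0.67 with quantile normalization. Klf1 differed by 0.20 ± 0.36 (adjusted p = 0.703) and turned to -0.82. Of 30 genes of the list 4 were higher and 6 lower. Ldb1, the bridging cofactor of the Gata1 complex, fell from 3.61, 3.09 and 3.83 to 0.64, 0.56 and 1.63, a change of -2.56 ± 0.41 (adjusted p = 0.00607). Ikzf3 and Runx3, better known from lymphocytes, rose by 2.59 ± 0.36 (adjusted p = 0.00413) and 2.53 ± 0.44 (adjusted p = 0.00755). These 3 calls held in every fit without 1 array.

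Of 41 red cell membrane and surface genes 3 were higher and 4 lower (median 0.16, and -0.68 with quantile normalization, where 10 were lower). Cd36, a fatty acid receptor of early erythroid stages, went from 6.12, 6.07 and 5.85 to 3.49, 3.01 and 3.39, with no overlap, a change of -2.72 ± 0.30 (adjusted p = 0.00266). Slc14a1 and Kcnn4, a urea transporter and a calcium-activated potassium channel, also fell. Slc4a1, band 3, was higher at 1.16 ± 0.31 (adjusted p = 0.0319) but turned to -0.06 with quantile normalization and held in 2 of the 6 fits without 1 array (adjusted p 0.055 to 0.113 in the rest). Without 7 week replicate 1 the list held 12 lower genes.

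Stress genes differed among the 7 week arrays. Under heme shortage a heme-regulated kinase phosphorylates eIF2 and an amino acid response follows, with Ddit3 and Trib3 in strong stress. Of 41 genes of this response 0 were higher and 5 lower (median -0.53). Ddit3 measured 6.13, 6.77 and 5.03 at 3 weeks and 9.06, 3.87 and 4.16 at 7 weeks, so 7 week replicate 1 was above and the other 2 below every 3 week array. Trib3 measured 6.88, 7.20 and 4.95 and then 9.22, 1.30 and 3.36. Neither difference passed, at -0.28 ± 1.35 (adjusted p = 0.892) and -1.71 ± 1.88 (adjusted p = 0.519). Without 7 week replicate 1, 14 of the 41 genes were lower and the median change was -1.12, and without 3 week replicates 1, 2 and 3 there were 0, 1 and 2 lower. The 5 calls with all arrays, Pck2, Aldh18a1, Cth, Shmt2 and Mars1, are enzymes of gluconeogenesis, proline, cysteine and serine metabolism and of methionyl tRNA synthesis. Aldh18a1 went from 0.69, 0.85 and 0.28 to -0.90, -2.06 and -1.29, a change of -2.02 ± 0.39 (adjusted p = 0.0111), and lost its call without 3 week replicate 1 (adjusted p = 0.0512).

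Interferon-stimulated genes were split in the same way. Their list median was 1.99 in 7 week replicate 1 and -1.35 and -1.19 in replicates 2 and 3, relative to the 3 week means. Irf7, the factor that amplifies interferon output, measured 4.96, 5.98 and 5.12 at 3 weeks and 4.57, 0.34 and -0.36 at 7 weeks, a difference of -3.83 ± 1.21 that did not pass (adjusted p = 0.0514) but passed as lower in 6 alternatives (adjusted p 0.0227 to 0.0491). Of 33 genes 2 were higher and 2 lower, but without 7 week replicate 1 there were 1 higher and 20 lower, with a median of -1.42. Such a count from 2 arrays at 7 weeks is given as a value beside the main one, and why the array differs was not tested.

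Antioxidant genes included several rises. Of 36 genes 9 were higher and 1, Nqo1, lower (median 0.24, and -0.20 with quantile normalization, where 3 were higher and 3 lower). Of the 30 genes under 20% of saturation 3 were higher and 1 lower, with a median change of 0.01, so most of the rises were among the brightest genes. Srxn1, which restores overoxidised peroxiredoxins, measured 3.07, 2.98 and 3.18 at 3 weeks and 7.17, 5.21 and 5.79 at 7 weeks, a change of 2.98 ± 0.51 (adjusted p = 0.00755). Maff, a small partner of Nrf2, went from -6.24, -5.80 and -5.16 to 0.68, -1.83 and -2.70, with 1 of the 3 week arrays well above background and a change of 4.45 ± 0.84 (adjusted p = 0.0103). Prdx6 rose by 2.14 ± 0.34 (adjusted p = 0.00619), and its further probes gave -0.26, 1.33 and 1.21. Without any 1 of the 3 week arrays 5 of the 36 genes were higher. Of 34 immediate early genes 8 were higher and 5 lower. Ier3 rose by 3.09 ± 0.44 (adjusted p = 0.00426), whereas Ier2 fell from 1.35, 2.09 and 0.69 to -1.99, -3.06 and -0.93, a change of -3.37 ± 0.61 (adjusted p = 0.00915). Of 38 heat shock and chaperone genes 4 were higher and 4 lower. Bag3, a co-chaperone of Hsp70, rose from 1.29, 1.00 and 0.66 to 5.62, 3.24 and 4.33, a change of 3.42 ± 0.60 (adjusted p = 0.00789), and Cct4, of the chaperonin that folds actin and tubulin, fell by 2.10 ± 0.31 (adjusted p = 0.00491).

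Of 46 proteasome genes 15 were higher and 4, Psmd14, Psmf1, Psmd5 and Psmd11, were lower (median 0.70, and -0.15 with quantile normalization, where 6 were higher). Of the 39 under 20% of saturation 9 were higher and 4 lower, with a median change of 0.39. Pomp, which assembles the core particle, rose from 4.77, 4.68 and 5.14 to 6.88, 7.33 and 7.37, a change of 2.33 ± 0.31 (adjusted p = 0.00382), and a further probe of it gave 0.39. Psmd14, the deubiquitinase of the lid, went from 4.61, 4.60 and 4.60 to 1.98, 1.68 and 2.51, a change of -2.54 ± 0.33 (adjusted p = 0.00345). Proteasome genes that were higher numbered 6, 7 and 5 without 3 week replicates 1, 2 and 3. Ubiquitin conjugation had 4 higher and 4 lower of 33, with Uba1, the main activating enzyme, at 1.84 ± 0.34 (adjusted p = 0.00972) and Ube2t at -2.73 ± 0.36 (adjusted p = 0.00368). Of 37 lysosomal genes 3 were higher and 5 lower, with Atp6v0a1 of the proton pump at 2.47 ± 0.47 (adjusted p = 0.0103) and its accessory protein Atp6ap1 at -3.94 ± 0.44 (adjusted p = 0.00273). Of 33 sterol and fatty acid genes 6 were higher and 4 lower, with Fdft1, squalene synthase, at -2.18 ± 0.37 (adjusted p = 0.00728). Without 7 week replicate 1 the sterol list held 12 higher genes, and without 3 week replicates 1, 2 and 3 it held 0, 3 and 0.

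Hypoxia and glycolysis genes went both ways. Of 26 hypoxia-inducible genes 5 were higher (19.2%, against 14.1% of all genes) and 4 lower (15.4%, against 15.8%), with 3 higher and 1 lower without any 1 of the 3 week arrays, and of 31 genes of glycolysis and the pentose phosphate path 5 were higher and 3 lower. Slc2a1, the glucose transporter Glut1, measured -2.62, -0.33 and -1.74 at 3 weeks and 6.23, 1.29 and 2.23 at 7 weeks, a change of 4.81 ± 1.27 (adjusted p = 0.0298). The groups did not overlap, but the call was lost without 3 week replicates 1, 2 and 3 (adjusted p 0.0576 to 0.102). Egln3, an oxygen sensor, was at least 1.63-fold lower, with no 7 week array well above background (fitted change -2.94, adjusted p = 0.00419). Rpe, of the pentose phosphate path, fell from 2.31, 2.81 and 2.80 to -0.59, -0.95 and -0.23, a change of -3.23 ± 0.34 (adjusted p = 0.00246).

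Markers of other marrow cells were among the genes that fell. In these bulk samples fewer cells of a type and less RNA per cell cannot be told apart. Of 20 monocyte and macrophage markers 0 were higher and 13 lower (median -1.86), all 20 were well above background on all 3 week arrays and 16 on all 7 week arrays, and their summed linear level was 161 to 242 at 3 weeks and 56.3 to 79.2 at 7 weeks. Lyz2, lysozyme, measured 2.52, 3.99 and 2.78 and then -0.26, -0.89 and -0.83, a change of -3.76 ± 0.46 (adjusted p = 0.00314). C1qa, a complement gene of resident macrophages, went from 4.15, 4.91 and 4.18 to 1.76, 1.67 and 2.56, a change of -2.42 ± 0.39 (adjusted p = 0.00632), and Mrc1, the mannose receptor, fell by 3.21 ± 0.57 (adjusted p = 0.00852). None of these 3 overlapped between groups, and each passed in every fit without 1 array. Without 3 week replicates 1, 2 and 3 in turn 10, 9 and 8 macrophage markers were lower.

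Of 20 neutrophil markers 8 were lower and 1, the granule gene S100a9, was higher (median -1.62). Ngp, a granule protein, went from 3.43, 4.42 and 3.38 to 0.18, 0.44 and 0.59, a change of -3.34 ± 0.38 (adjusted p = 0.00277), and Mmp9 fell by 4.03 ± 0.47 (adjusted p = 0.00283). The summed level of the list was 563 to 827 at 3 weeks and 634 to 938 at 7 weeks, so the ranges of the sums overlapped, and 11 of the 20 markers did not pass. Over probes well above background on all 6 arrays 7 of 17 neutrophil markers were lower and 3 higher, and 9 of 16 macrophage markers were lower and 0 higher. Without 3 week replicates 2 and 3 the list held 3 and 2 lower genes. Of 15 B lineage markers 1 was higher and 3 lower, with sums of 20.8 to 42.8 and 7.84 to 22.0. Of 20 megakaryocyte and platelet markers 1 was higher and 3 lower (15%). Of 11 mast cell, basophil and eosinophil markers 0 were higher and 2 lower (18.2%), and of 16 T and NK cell markers 3 were higher and 2 lower (12.5%). These lower shares, and the 20% of the B lineage list, were near the 15.8% of all genes. The list medians were further from the -0.16 of all genes. They were -1.53 for B lineage, -1.10 for megakaryocyte and platelet, -1.75 for mast cell, basophil and eosinophil and 0.39 for T and NK cell markers. On all 7 week arrays 9, 14, 8 and 11 genes of these 4 lists were well above background. Within the T and NK cell list, Prf1 (perforin) and Cd8b1 rose by 3.07 ± 0.38 (adjusted p = 0.00316) and 3.02 ± 0.53 (adjusted p = 0.00767). Of 22 stem and progenitor genes 2, Eng and Sox4, were higher and 1, Spi1, was lower. What part other cells played in the changes above was not tested.

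Some of the largest single changes were in genes of the lists, such as Slc2a1 among the rises and Cdc45, Ppbp (a platelet chemokine, -5.91, adjusted p = 0.0142) and Prg2 (an eosinophil granule protein, -5.51, adjusted p = 0.0383) among the falls, the last 2 with 2 of the 7 week arrays well above background. Ppbp did not pass without 3 week replicate 1 or 3 (adjusted p 0.0566 and 0.057), nor Prg2 without 3 week replicate 2 or 3 or 7 week replicate 2 or 3 (0.0638 to 0.126). The genes described next were outside the lists. Cda, cytidine deaminase, measured -4.14, -3.89 and -4.49 at 3 weeks and 0.57, 3.97 and 4.27 at 7 weeks, with 2 of the 3 week arrays well above background. Its change of 7.11 ± 0.94 (adjusted p = 0.00368) was the largest rise. Ntrk2, a neurotrophin receptor, measured 1.91, 2.11 and 1.51 and then 7.63, 7.97 and 6.87, a change of 5.64 ± 0.39 (adjusted p = 0.00237). Sctr (the secretin receptor), Slit1 (an axon guidance ligand), S100a5 and Prl2a1 (a placental prolactin relative) rose by 5.18, 5.17, 5.12 and 4.94, all best known from other tissues than marrow. A further probe of Sctr gave -0.43. Etv5, an Ets factor downstream of growth factor signals, went from 0.35, 0.80 and 0.04 to 5.32, 6.55 and 4.76, a change of 5.15 ± 0.51 (adjusted p = 0.00237). Gmpr, a GMP reductase of red cells, rose by 5.03 ± 0.87 (adjusted p = 0.00758). Rmrp, the RNA of RNase MRP, was at least 14.4-fold higher, with no 3 week array well above background (fitted change 5.81, adjusted p = 0.00246).

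The largest fall was that of Aldh1a7, an aldehyde dehydrogenase, from 3.06, 3.46 and 4.07 to -5.38, -5.84 and -1.16, a change of -7.66 ± 1.17 (adjusted p = 0.00538) with 1 of the 7 week arrays well above background. Stard10, a lipid transfer protein, went from 3.67, 3.89 and 4.74 to -5.05, -2.13 and -0.01, a change of -6.50 ± 1.15 (adjusted p = 0.00832), with 2 of the 7 week arrays well above background. Cd209f, a C-type lectin of the DC-SIGN family, was at least 29.0-fold lower and the glypican Gpc4 at least 16.9-fold lower, with no 7 week array well above background for either (fitted changes -6.35 and -5.94, adjusted p = 0.00237 for both). Il17ra, an interleukin receptor, measured 2.47, 2.53 and 2.40 and then -1.91, -5.37 and -2.45, a change of -5.71 ± 0.85 (adjusted p = 0.00498), with 2 of the 7 week arrays well above background. Sephs2, which makes selenophosphate for selenoproteins, changed by -5.50 ± 0.58 (adjusted p = 0.00246), with 1 of the 7 week arrays well above background. Cd177, a neutrophil surface protein, was at least 12.3-fold lower (fitted change -5.23, adjusted p = 0.00237). Lack of overlap between groups was a condition for being named among the largest falls, so it adds nothing here. Each of these genes entered the comparison through the 3 week group alone, where it was high, and each passed in every fit without 1 array.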

How the data were processed

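RNA of each sample was labelled with Cy3 and hybridised to a 1-colour Agilent array, per the labels' protocols, and scanned data were extracted with Agilent Feature Extraction 10.7.3.1, per the file headers. The deposited files hold processed intensity values of each spot on a linear scale, background-subtracted and detrended within the array per the file headers. The series table that the authors deposited holds log2 values centred on each probe's median, with the normalization between arrays not given in the sources used here, and was used as an alternative only.

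From the intensity, log2 levels were taken minus the 75th percentile of each array, with control and outlier spots left out. A gene was kept where 1 or both groups had it well above background on each of their 3 arrays. Probes were named through RefSeq accessions (GRCm38.p6, 26413 of 55681 matched) and the brightest probe over the 6 arrays stood for each gene. The 6 arrays were fitted by lmFit and eBayes of limma 3.58.1 (R 4.3.3), with Benjamini-Hochberg adjustment over 13406 genes and a threshold of 0.05. With 3 arrays a group, their number limits the precision, and p-values measure the spread between these samples, which may be technical. Where no array of a group was well above background, a fold is "at least" that against the lowest signal well above background. The scripts were tested on simulated data.

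The rule for naming took the 15 largest rises and 15 largest falls among genes past the threshold whose groups did not overlap. It added up to 6 genes of each of 45 lists, those past the threshold with the largest changes, and list genes marked for naming whether they passed or not. The rule named 366 genes, of which 272 passed, and the text prints a part of them. The members and lists were chosen with earlier results of these data known, and Isca1, Birc5, Gins3, S100a9, Dusp6, Mrpl37, Mrps9, Mrps27, Psmd5, Psmd11, Depdc1a, Espl1, Kif11 and Cenpn were named after their values were seen. Alternatives were other scalings, filters, probe rules and fits, and leaving out each array. Normexp correction (offset 50) on median signals was chosen after seeing the data, because the planned version could not be run. Replicate numbers were tested for pairing: deviations of same-numbered arrays correlated at 0.157, 0.0148 and 0.339, and those of differently numbered arrays at -0.302 to 0.144. With so few arrays this does not settle whether the numbers pair. The labels do not say that the numbers pair animals, so the main fit did not take them as pairs.

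Some genes of the lists are not reported here, though the counts include them.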

Additional observations from a re-analysis of the deposited data

Results flagged for a closer look

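The spike-in controls, which lie outside the gene comparison, differed between the groups. Their mean log2 level over 10 probes was 4.96 ± 0.469 (SD, n = 3) at 7 weeks and 1.29 ± 0.234 at 3 weeks, and their log2 signal before scaling was 14.53 to 15.04 and 11.91 to 12.24. Slide, scan and amount of sample RNA cannot be told apart from the diet's length here.

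Probes without a gene symbol also passed the threshold in number. Of 13530 such probes tested, 5241 passed in limma, which is 38.7%, with 3780 higher and 1461 lower at 7 weeks.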

How the results depend on the processing

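Counts of genes past the threshold were within 1.5 times the reported ones with other scalings, filters, probe rules and fits: 3422 to 5254 genes in all, against 4000, with the replicate block, which took the replicate numbers as pairing, at 3653. Leaving out 1 array gave 1571 to 5362 genes in all, 785 to 2370 higher and 786 to 2992 lower, lowest without 3 week replicate 3 and highest without 7 week replicate 1. Of the 166 genes printed above 151 passed, and 96 of these passed in every fit without 1 array. That is a larger share than the 125 of 272 among all genes of the naming rule that passed, and than the 1441 of all 4000. The printed genes are therefore steadier than the calls as a whole. The replicate block ended 14 of their calls.

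With quantile normalization the direction turned for Urod (-0.08), Slc25a37 (-0.21), Alas2 (-0.25), Hba-a1 (-0.02), Hbb-bt (-0.03), Tfrc (-0.85), Bnip3l (-1.09), Gata1 (-0.67), Klf1 (-0.82), Slc4a1 (-0.06), Mki67 (-0.43) and Birc5 (-0.23). Averaging a gene's probes, it turned for Tfrc (-1.21), Erfe (-0.24) and Birc5 (-0.02), and in the authors' series table for Erfe (-0.01). Over the fits without 1 array the change ranged across 0 for Tfrc (-0.06 to 0.63), Bnip3l (-0.02 to 0.30), Klf1 (-0.03 to 0.50), Pcna (-1.04 to 0.33), Erfe (-0.39 to 0.50) and Ddit3 (-1.96 to 0.63), of which Tfrc, Bnip3l, Klf1 and Pcna turned only without 7 week replicate 1. Of these, Urod, Slc25a37, Hba-a1, Hbb-bt, Slc4a1 and Birc5 had passed with all arrays. The cause of these turns was not tested. Genes dim on the 7 week arrays have only bounds there. A further probe went the other way from the brightest for Sctr, Rps15a, Prdx6, Tomm7, Atg7 and Tfrc. The same held for Isca1 (0.87), Slc25a37 (-0.68), Erfe (-0.55), Birc5 (-0.84 and -0.30) and 1 probe of Bnip3l (-0.34). With the mean over their probes, Isca1 and Slc25a37 did not pass in limma (adjusted p = 0.755 and 0.809).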
